A study of Homo sapiens with 12 samples.

Results

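The genes of 6 peptidases grouped here as membrane peptidases were followed in total RNA of 2 human hepatocellular carcinoma cell lines, HEP3B and SNU-449. They were MEP1A, MEP1B, ANPEP, ENPEP, DPP4 and MME. The members were all probe sets that the platform annotation assigns to these 6 symbols and to no other gene. There were 12 such probe sets among 54613, and 6 genes among the 19775 that carry a probe set of their own. MEP1A and ANPEP were chosen by their log2 levels in HEP3B, which were lower after treatment, and the other 4 genes were added as relatives. The treatment comparison in HEP3B is therefore given as a description of the members, with no test.

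The study asked how DAAD-2, an amide of (+)-dehydroabietylamine with N-acetyl-L-cysteine, acts on liver cancer cells that differ in their response to it. HEP3B, labelled sensitive, received 2 μM DAAD-2 and SNU-449, labelled resistant, received 20 μM, each for 72 h, and control cultures of both lines received 0.1% DMSO for 72 h. The labels give no DMSO content for the DAAD-2 samples, so whether it matched that of the controls is not known. Each of the 4 groups had 3 Affymetrix HG-U133 Plus 2.0 arrays, 12 in all. The dose differs between the lines, so line and dose cannot be told apart in the DAAD-2 arrays, and each line stands for itself alone as a model of a response class. The labels do not say whether the 3 arrays of a group come from 3 cultures, and p-values then cover no more than the spread of these arrays, which may be technical.

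All values are log2 levels made by the authors with RMA, a method that corrects background, normalizes between arrays and summarises the probes of a set. Array medians lay between 3.71 and 3.85, and a probe set near or under the median of its array carries little signal over background. The GAPDH control probe sets, whose 3′ minus 5′ difference rises as RNA degrades, differed by 0.34 to 1.51 on 11 arrays and by 1.99 on SNU-449 DAAD-2 array 2. For the ACTB control probe sets this difference was 1.82 to 3.27 over the 12 arrays, highest on HEP3B DAAD-2 array 3. The levels of different probe sets are on different scales and were not set against each other. The liver origin was checked with 7 hepatocyte markers, whose mean level was 8.08 to 8.16 above the array median in HEP3B DMSO and 0.30 to 0.56 above it in SNU-449 DMSO. ALB, the gene of serum albumin, was at 14.53 ± 0.03 in HEP3B DMSO and at 3.18 ± 0.18 in SNU-449 DMSO (SD, n = 3), so this defining marker was near the array median in the SNU-449 arrays. VIM, which codes for the mesenchymal filament protein vimentin, was at 10.24 ± 0.40 in HEP3B DMSO and at 13.94 ± 0.08 in SNU-449 DMSO. On these DMSO arrays 4 of 5 mesenchymal markers were lower in HEP3B (adjusted p under 0.05 by limma). The other 1, FN1, was higher there, at 11.56 ± 0.10 against 10.75 ± 0.15. The means of leukocyte and endothelial markers stayed within 0.70 of the array median on all 12 arrays, but single markers stood higher. Of 4 leukocyte markers, 1 was higher in HEP3B DMSO than in SNU-449 DMSO (CD14, 5.37 against 3.32). Another 1 was lower (CD3E, 4.35 against 4.95), both at adjusted p under 0.05 by limma. The endothelial PECAM1 was at 5.83 in HEP3B DMSO and 5.88 in SNU-449 DMSO.

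As a class, ectopeptidases sit in the plasma membrane with their catalytic domain outside the cell. There they trim or inactivate peptide hormones, cytokines and dietary peptides. They are abundant on brush borders of the intestine and the kidney, and several of them line the bile canaliculi of hepatocytes. MEP1A and MEP1B are the alpha and beta subunits of meprin, a zinc protease of the astacin family. Only RNA was measured here, and that of MEP1B was under the array median on every array. Whether the MEP1A product sat in the membrane of these cells was not tested, so its values are read as RNA levels only. ANPEP and ENPEP are zinc aminopeptidases that remove neutral and acidic amino-terminal residues, DPP4 is a serine protease that releases dipeptides after proline or alanine, and MME is neprilysin, a zinc endopeptidase of small peptides.

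The promoters of ANPEP and DPP4 are shown because the level of ANPEP was lower after treatment in HEP3B, while that of DPP4, which like ANPEP was much higher in HEP3B than in SNU-449, was not. The sequences are the 250 bases before the start in RefSeq on GRCh38.p14, 5′ to 3′ in the direction of the gene. ANPEP has 2 annotated starts that lie 8224 bases apart. The window of the inner start (chr15:89806629-89806878, minus strand) has a GC content of 64.4%, that of the outer start (chr15:89814853-89815102, minus strand) 74%, and that of DPP4 (chr2:162074216-162074465, minus strand) 73.6%. Capitals mark an E-box (CACGTG) in the last sequence.
ANPEP inner start: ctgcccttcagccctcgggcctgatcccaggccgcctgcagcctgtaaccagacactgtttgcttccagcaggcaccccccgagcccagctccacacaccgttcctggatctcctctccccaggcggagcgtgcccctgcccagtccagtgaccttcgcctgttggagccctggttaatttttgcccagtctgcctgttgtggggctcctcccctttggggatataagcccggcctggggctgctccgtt
ANPEP outer start: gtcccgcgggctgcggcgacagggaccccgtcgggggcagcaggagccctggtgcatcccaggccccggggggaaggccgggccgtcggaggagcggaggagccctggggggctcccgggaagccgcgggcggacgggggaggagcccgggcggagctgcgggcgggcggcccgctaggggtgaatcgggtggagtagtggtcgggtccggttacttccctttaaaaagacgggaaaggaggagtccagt
DPP4: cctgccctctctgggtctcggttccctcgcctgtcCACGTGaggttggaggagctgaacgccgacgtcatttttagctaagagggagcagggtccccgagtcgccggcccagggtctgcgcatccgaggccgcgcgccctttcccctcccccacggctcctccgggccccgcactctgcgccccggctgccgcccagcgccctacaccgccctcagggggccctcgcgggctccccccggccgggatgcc

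The E-box lay 215 to 210 bases before the DPP4 start, and 6.35% of the 35114 windows of all genes held its letters on either strand. Its letters read the same on both strands. The other motifs searched on both strands were the HNF4 letters CAAAGTCCA (0.325%), the CDX letters TTTAT (32.7%), the AP-1 letters TGANTCA (6.57%) and the NF-kB motif of the immunoglobulin kappa enhancer (0.179%). None of these stood in the windows of ANPEP or DPP4, which says only that the letters are not there. RefSeq windows were matched for 5 of the 6 genes (9 windows, the other gene being MEP1A), and the CDX letters stood in those of ENPEP and MEP1B.

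**Figure D1:**
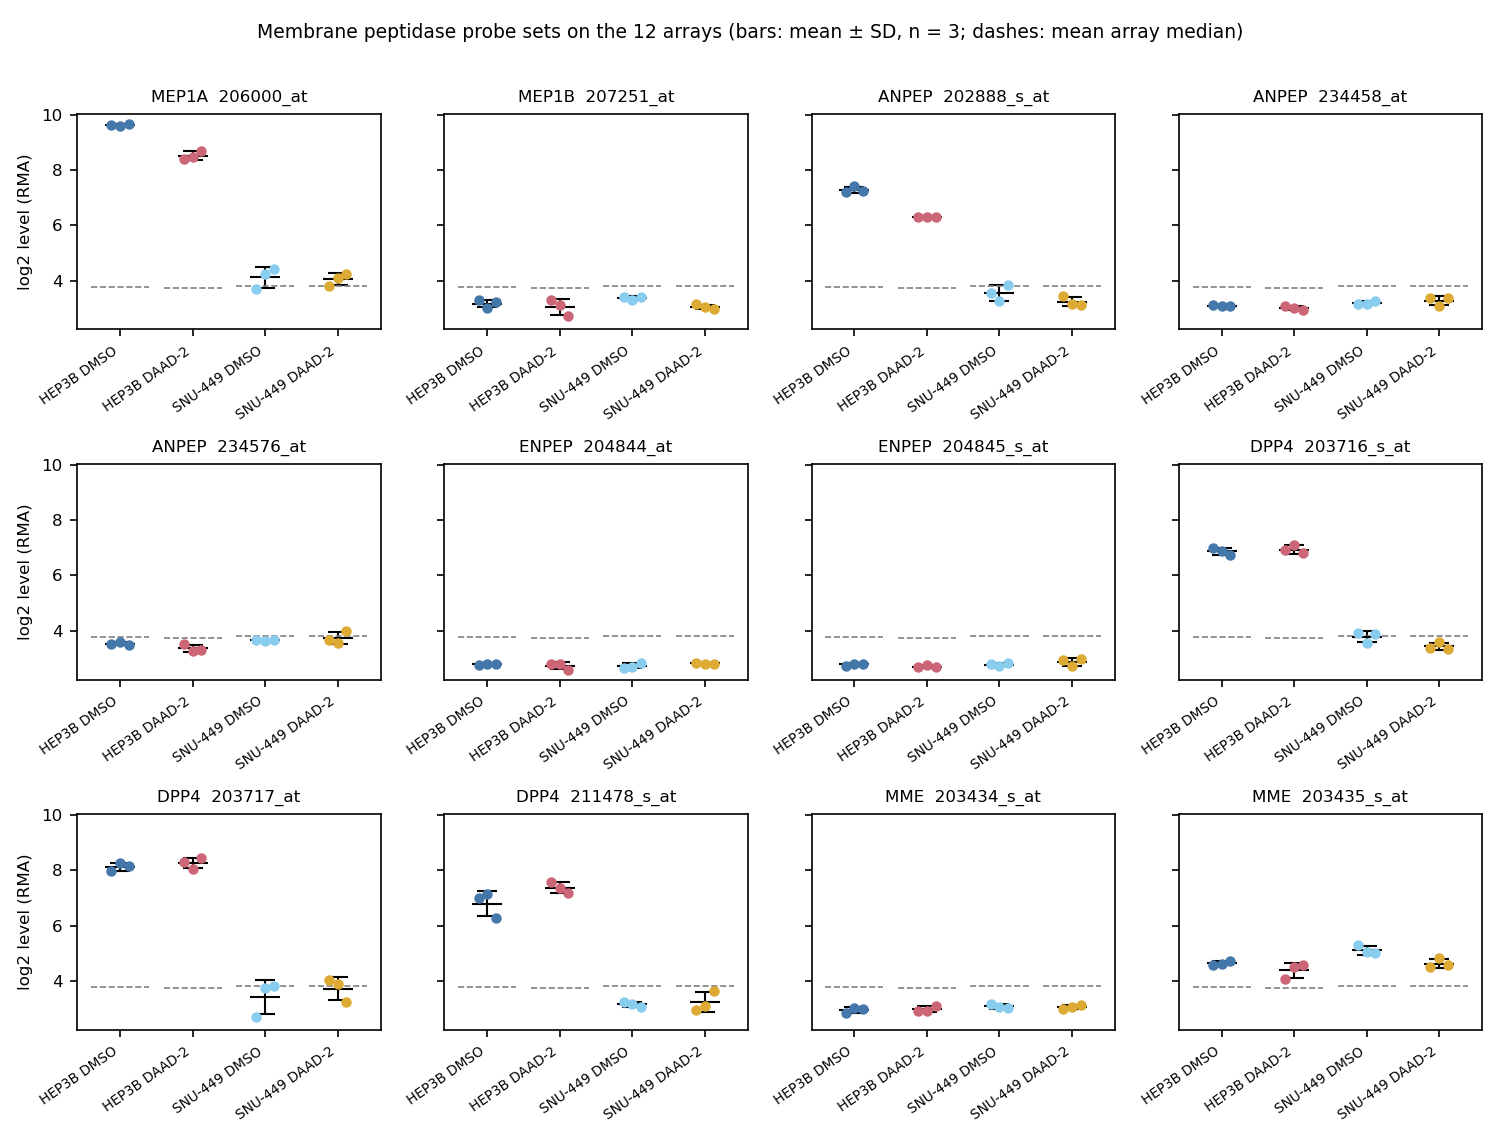
Log2 RMA level (y axis) of the 12 probe sets of the 6 genes in the 4 groups (x axis). Points are arrays, black bars are the mean ± SD (n = 3), and grey dashes are the mean of the array medians. MEP1A 206000_at, ANPEP 202888_s_at and the 3 DPP4 probe sets stood far above the dashes in HEP3B and near them in SNU-449. Only the first 2 of these were lower after DAAD-2 in HEP3B, the comparison by which MEP1A and ANPEP were chosen.

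MEP1A, measured by 206000_at, had the largest difference of the members in HEP3B. Its level on the 3 DMSO arrays was 9.65, 9.62 and 9.67, and on the 3 DAAD-2 arrays 8.42, 8.46 and 8.71. The DMSO arrays lay within 0.06 of each other, and every DAAD-2 array was lower by 0.94 to 1.23 than their mean. The mean was 9.65 ± 0.03 under DMSO and 8.53 ± 0.16 under DAAD-2 (SD, n = 3), a difference of -1.12 (SE 0.10), which leaves 46.2% of the control level. These are levels over all cells of a culture, in which fewer cells that make MEP1A and less MEP1A RNA per cell cannot be told apart.

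In SNU-449, MEP1A was at 3.70, 4.23 and 4.41 on the DMSO arrays and at 3.80, 4.09 and 4.25 on the DAAD-2 arrays. The groups overlapped, and the difference was -0.07 (SE 0.19, 95% interval -0.51 to 0.38, adjusted p = 0.948 by limma over all probe sets). MEP1A was above the array median on 4 of the 6 SNU-449 arrays, and by little, so a difference of the HEP3B size might not be measurable there. The HEP3B difference minus the SNU-449 difference was -1.05 (SE 0.24), given as a description because it holds the comparison that chose the gene.

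ANPEP, aminopeptidase N, differed in the same direction at its probe set 202888_s_at. In HEP3B it was at 7.20, 7.41 and 7.23 under DMSO and at 6.32, 6.31 and 6.32 under DAAD-2. The treated arrays were nearly identical and all lay under the lowest control array. The mean was 7.28 ± 0.11 and 6.32 ± 0.01 (SD, n = 3), a difference of -0.97 (SE 0.10) that leaves 51.2% of the control level. In SNU-449 it was at 3.55, 3.25 and 3.82 under DMSO and at 3.43, 3.16 and 3.12 under DAAD-2. These groups overlapped, with a difference of -0.30 (SE 0.16, 95% interval -0.67 to 0.06, adjusted p = 0.540 by limma), and only 1 of the 6 SNU-449 arrays was above its array median. The difference between the responses of the lines was -0.66 (SE 0.19), again as a description.

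The other 2 probe sets of ANPEP did not follow the first. In HEP3B, 234458_at differed by -0.09 (SE 0.09) and 234576_at by -0.17 (SE 0.10), both with overlapping groups. Their levels over the 12 arrays, 2.94 to 3.37 and 3.27 to 3.98, lay around or under the array medians. The lower level of ANPEP thus rests on 1 of its 3 probe sets.

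Among all genes that had separate groups and an unadjusted p under 0.05 in HEP3B, MEP1A took rank 2 and ANPEP rank 5 by the size of the negative difference. APOM, at rank 1, differed by -1.34. The genes were proposed from the 12 lowest, and the values on each side of that limit were close, -0.90 for LOC101926907 at rank 12 and -0.89 for ANG at rank 13. No probe set of the 54613 passed the adjusted threshold in HEP3B by limma (0% in either direction), against 8191 with an unadjusted p under 0.05. On the same arrays 5 of 7 hepatocyte markers were lower after DAAD-2 without overlap, against 10.3% of all genes, with a median difference of -0.32. Their mean level above the array median went from 8.08 to 8.16 under DMSO to 7.88 to 7.98 under DAAD-2, and ALB itself differed by -0.06 (SE 0.09). The part of this shift in the levels of MEP1A and ANPEP was not tested.

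DPP4, which inactivates incretin hormones, was not lower in HEP3B after DAAD-2 with the deposited scaling. Probe set 203716_s_at was at 6.88 ± 0.12 under DMSO and differed by 0.07 (SE 0.11), and 203717_at was at 8.13 ± 0.16 and differed by 0.14 (SE 0.13), with overlapping groups for both. With quantile normalization these 2 differences turned to -0.10 and -0.01. Probe set 211478_s_at was at 6.98, 7.13 and 6.27 under DMSO and at 7.57, 7.36 and 7.18 under DAAD-2. All treated arrays were above the controls, by 0.58 on average (SE 0.21), but control array 3 stood low, and the difference was 0.32 without it.

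DPP4 also showed no called difference in SNU-449. Its 3 probe sets differed there by -0.36 (SE 0.14, adjusted p = 0.334), 0.31 (SE 0.31, adjusted p = 0.809) and 0.08 (SE 0.17, adjusted p = 0.922) by limma, in the order above. The groups overlapped for all 3, and the signs were mixed. The second of these was -0.05 without DMSO array 1, and the third was -0.12 without DAAD-2 array 3. The probe sets were above the array median on 2, 2 and 0 of the 6 arrays, so these values are close to background.

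MME, neprilysin, was low in both lines and was read by 203435_s_at only. It was at 4.64 ± 0.07 under DMSO and 4.38 ± 0.28 under DAAD-2 in HEP3B, without overlap, a difference of -0.26 (SE 0.14) that was -0.11 without DAAD-2 array 1. In SNU-449 it was at 5.10 ± 0.16 and 4.62 ± 0.16, again without overlap, and differed by -0.48 (SE 0.13, 95% interval -0.78 to -0.18, adjusted p = 0.148 by limma). The second probe set, 203434_s_at, stayed between 2.83 and 3.16 on all 12 arrays.

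MEP1B, the subunit that pairs with MEP1A in meprin A, was dim in both lines. Its probe set 207251_at lay between 2.72 and 3.40 and under the array median on all 12 arrays. In SNU-449 the DAAD-2 arrays were lower without overlap (a difference of -0.31, SE 0.11, adjusted p = 0.260 by limma), and in HEP3B the difference was -0.12 (SE 0.15). ENPEP, the aminopeptidase that converts angiotensin II to angiotensin III, was likewise dim. Its 2 probe sets stayed between 2.58 and 2.97 and within 0.10 of no difference in both treatment comparisons.

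In all, 5 of the 12 member probe sets were under the array median on every array, namely those of MEP1B and ENPEP, ANPEP 234458_at and MME 203434_s_at. No member probe set was called in SNU-449, where 1.04% of all probe sets were called higher and 0.417% lower by limma. At an unadjusted p under 0.05, 3 of the 12 were lower there and 0 higher, beside 5.8% and 6% of all probe sets. There, 2 of 12 were lower without overlap between groups (MME 203435_s_at and MEP1B) against 7.76% of all probe sets. In HEP3B, 3 of 12 were lower without overlap (MEP1A, ANPEP 202888_s_at and MME 203435_s_at) against 9.99%, and 1 was higher (DPP4 211478_s_at) against 11%, shares from which nothing is read because the members were chosen there. The median difference of the 12 probe sets was -0.08 in HEP3B and 0.03 in SNU-449, beside -0.02 and 0.01 over all probe sets.

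**Figure D2:**
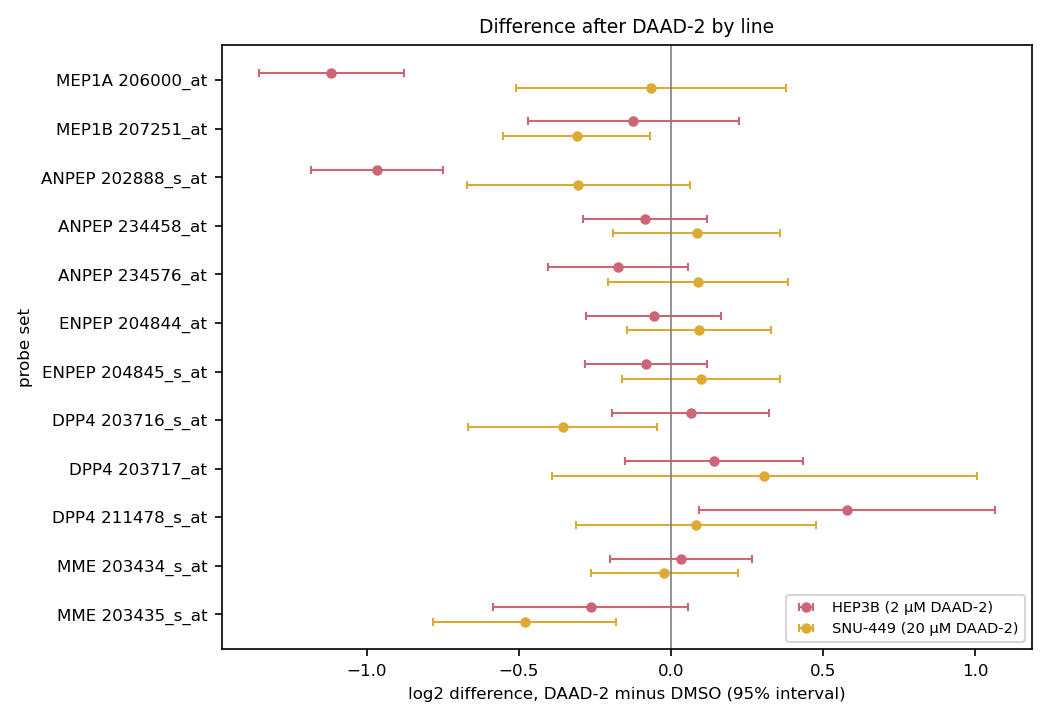
Log2 difference DAAD-2 minus DMSO (x axis) for the 12 probe sets (y axis) in HEP3B (2 μM, red) and SNU-449 (20 μM, yellow). Points are limma estimates from 3 against 3 arrays and bars are 95% intervals. MEP1A at -1.12 and ANPEP 202888_s_at at -0.97 in HEP3B stand apart from the other points, but these genes were chosen by this comparison.

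The level of each member without the compound was compared between the lines on the DMSO arrays, HEP3B minus SNU-449. MEP1A was higher in HEP3B by 5.53 (SE 0.17), a 46.3-fold difference, ANPEP 202888_s_at by 3.74 (SE 0.15), 13.4-fold, and DPP4 by 3.10 (SE 0.13), 4.73 (SE 0.27) and 3.65 (SE 0.20) over its 3 probe sets, 8.55-fold to 26.5-fold. These 5 probe sets passed the test (largest adjusted p = 1.62e-06 by limma, for DPP4 203717_at), where 14.5% of all probe sets were called higher. The groups did not overlap for any of them, as for 20.2% of all probe sets in this direction. MEP1A and ANPEP were chosen on the same HEP3B DMSO arrays, so their calls are no independent evidence, and nothing is read from the count of 5 against the share of all probe sets. Since their SNU-449 levels were close to the array median, where there is little signal over background, each fold depends on a level that is poorly measured.

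MME 203435_s_at was the 1 member called lower in HEP3B under DMSO, at 4.64 against 5.10, a difference of -0.46 (SE 0.11, adjusted p = 0.0123 by limma), where 14.8% of all probe sets were called lower. Its fold was under 1.5, so it was not among the 10.8% of probe sets with an unadjusted p under 0.05 and a larger fold in this direction. ANPEP 234458_at and 234576_at were also lower in HEP3B without overlap, with differences of -0.10 and -0.12, and were not called (adjusted p = 0.498 and 0.408 by limma). With MME these made 3 of 12 lower without overlap, against 21.4% of all probe sets. These 2 probe sets lay around or under the array median, so no direction is read from them. The high level of ANPEP in HEP3B thus rests on the bright probe set alone. MEP1B, both ENPEP probe sets and MME 203434_s_at overlapped between the lines.

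On the DAAD-2 arrays the difference between the lines was 4.48 (SE 0.14), 22.4-fold, for MEP1A and 3.08 (SE 0.12), 8.45-fold, for ANPEP 202888_s_at. For DPP4 it was 3.52 (SE 0.12), 4.56 (SE 0.20) and 4.15 (SE 0.19). The same 5 probe sets were called higher in HEP3B, where 15.4% of all probe sets were, and none of the 12 was called lower by limma, against 12.8% of all. At an unadjusted p under 0.05, 2 of the 12 were lower, beside 18.4% of all probe sets. The HEP3B DAAD-2 arrays also entered the choice of MEP1A and ANPEP, so here too their calls are no independent evidence and nothing is read from the count of 5. Without overlap, 5 were higher and 3 lower (ENPEP 204844_at, ANPEP 234458_at and 234576_at), beside 19.2% and 22.6% of all probe sets. MME 203435_s_at differed by -0.24 (SE 0.16, adjusted p = 0.320 by limma) and its groups overlapped. The order of levels for MEP1A and ANPEP 202888_s_at was therefore HEP3B DMSO, HEP3B DAAD-2 and then the SNU-449 groups, which overlapped. For DPP4 the HEP3B groups stood above both SNU-449 groups, and for MME 203435_s_at SNU-449 DMSO stood above the rest. The median difference over the members was 0.03 under DMSO and -0.04 under DAAD-2, beside -0.01 and -0.06 over all probe sets.

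**Figure D3:**
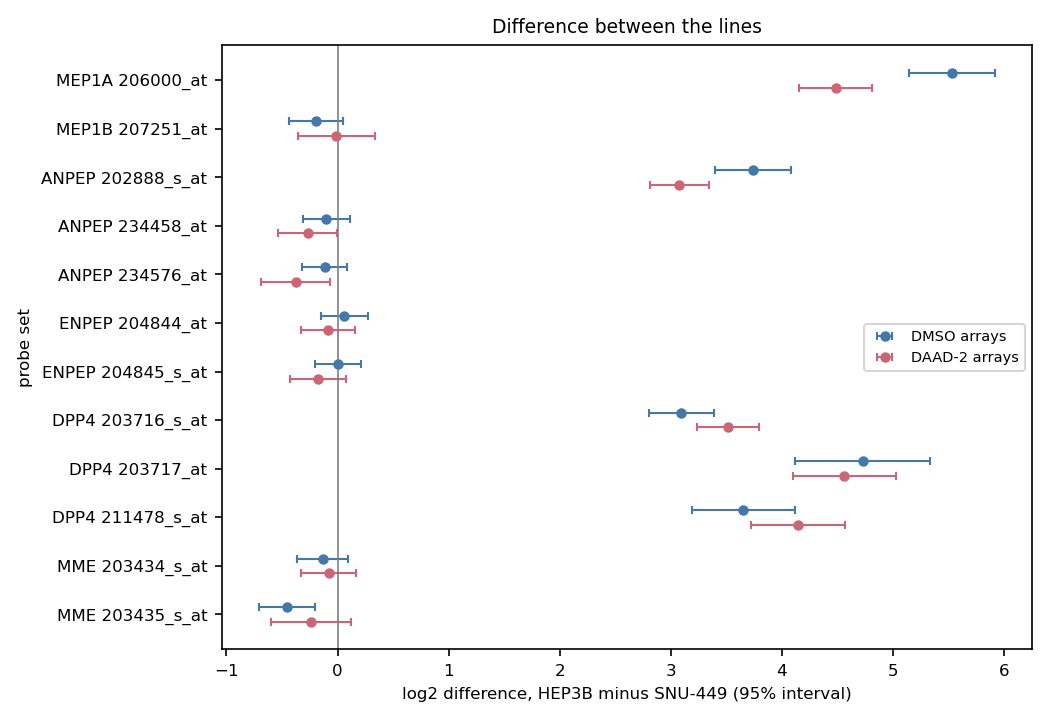
Log2 difference HEP3B minus SNU-449 (x axis) for the 12 probe sets (y axis) on DMSO arrays (blue) and DAAD-2 arrays (red), with limma estimates from 3 against 3 arrays and 95% intervals. MEP1A, ANPEP 202888_s_at and the 3 DPP4 probe sets lie between 3.08 and 5.53, and the other 7 lie within 0.46 of 0.

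The genes whose profile over the 12 arrays was most like that of MEP1A were ranked by the root mean square difference of log2 values, each centred on its own mean, among 997 genes that varied at least 0.5 times as much. The 5 nearest were SMLR1 (0.24), ST3GAL6, a sialyltransferase (0.26), the forkhead factor FOXA3 (0.30), coagulation factor F10 (0.38) and the membrane serine protease HPN (0.38). All 5 were at 7.71 to 10.02 in HEP3B and at 2.96 to 4.65 in SNU-449, as group means, and this gap sets most of the measure. SMLR1 came closest also in the response of HEP3B, with 9.65 under DMSO, 8.71 under DAAD-2 and a difference of -0.94. The other 4 differed by -0.61 to -0.56. The HEP3B arrays are part of the measure and MEP1A was chosen by this difference, so nothing is read from these responses.

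For ANPEP, among 1870 genes, the 5 nearest were SELENBP1 (0.28), POU2AF3 (0.30), EVA1A (0.31), PLCXD1 (0.31) and SLC45A4 (0.31). Their HEP3B differences, -0.42 to -0.20, were all smaller than that of ANPEP. Since ANPEP was chosen by this difference, nothing is read from that. DPP4 stood at rank 64 for MEP1A and rank 571 for ANPEP, ANPEP at rank 197 for MEP1A, and MEP1A at rank 598 for ANPEP.

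**Figure D4:**
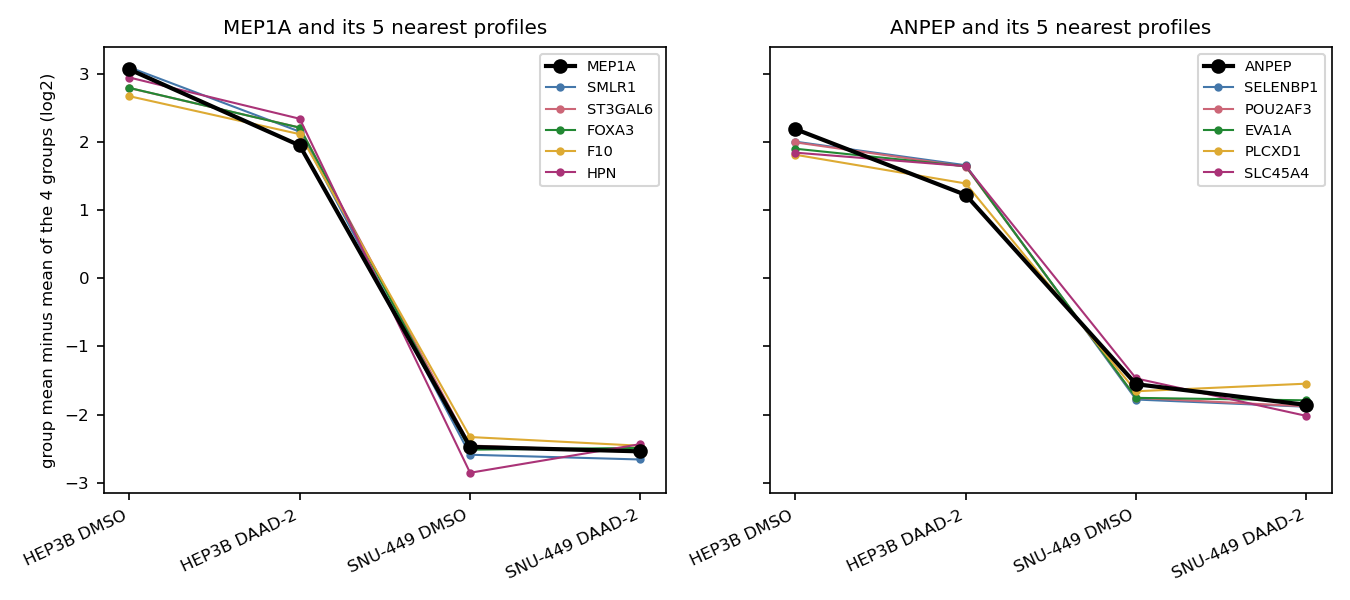
Group means of log2 level, each gene centred on the mean of its 4 groups (y axis), for MEP1A (left) and ANPEP (right, both black) and their 5 nearest genes (colours) in the 4 groups (x axis). From HEP3B DMSO to HEP3B DAAD-2 the black lines differ by -1.12 and -0.97, more than the coloured ones. MEP1A and ANPEP were chosen by this difference, so nothing is read from that.

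The wider setting of these enzymes was described with 8 lists of 90 genes in all, each gene by its brightest probe set. Of these, 82 were analysed here. No gene of any list was called after DAAD-2 in HEP3B, where 0% of genes were called, or in SNU-449, where 1.82% of genes were called higher and 0.561% lower (limma). At an unadjusted p under 0.05 there were 16 of the 82 in HEP3B, where 20.2% of all genes passed, and 13 in SNU-449, where 16.6% did. Between the lines under DMSO, 21.4% of all genes were called higher in HEP3B and 19.4% lower.

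Of the nearest relatives of MME, the M13 endopeptidases, 2 of 5 were higher in HEP3B than in SNU-449 under DMSO, MMEL1 by 0.76 and the endothelin-converting ECE2 by 0.57, and none was lower. Of 9 relatives of ANPEP, the M1 aminopeptidases, AOPEP was higher by 0.71, while ERAP2, which trims peptides in the endoplasmic reticulum, differed by -2.86 (3.67 ± 0.33 against 6.53 ± 0.19) and RNPEP by -0.82. Of 8 relatives of DPP4, the S9 peptidases, only the cytosolic DPP8 was called, higher by 0.51, and of 3 astacins related to the meprins none was called. The list medians were 0.46, -0.12, -0.12 and -0.15, beside -0.01 over all genes. With every probe set of a gene, those of M13 and S9 were 0.20 and -0.01. After DAAD-2 in HEP3B the S9 member PREP, a prolyl endopeptidase of the cytosol, had the largest difference of these 4 lists, 0.74 (SE 0.13, 7.48 to 8.22, not called), opposite in sign to MEP1A and ANPEP.

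Other surface peptidases were called on both sides between the lines. The carboxypeptidases CPD (10.11 ± 0.07 against 7.54 ± 0.18) and CPM were higher in HEP3B by 2.57 and 1.76, and TMPRSS15 (enteropeptidase) and GGT1 (gamma-glutamyltransferase) differed by -1.86 and -0.67, which makes 2 higher and 2 lower of 13. The largest HEP3B difference after DAAD-2 on this list was that of XPNPEP2, a membrane aminopeptidase P, at -0.37 (SE 0.13). In SNU-449 it was that of the sheddase ADAM17, at 0.52 (SE 0.12, adjusted p = 0.0778 by limma).

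Of 16 brush border proteins, the scaffold PDZK1 (9.86 ± 0.07 against 2.90 ± 0.28), the actin-bundling VIL1 (9.94 ± 0.16 against 3.57 ± 0.41) and the peptide transporter SLC15A1 were higher in HEP3B under DMSO, by 6.96, 6.37 and 1.88, and the membrane linker EZR differed by -0.80. The other 12 genes of the list were not called, and the list median was -0.03. Enterocyte markers were called higher for 2 of 5, VIL1 among them. After DAAD-2 in HEP3B, SLC15A1, which takes up the short peptides that these enzymes release, differed by 0.51 (SE 0.15, 5.76 to 6.27, not called).

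The transcription factors of liver and gut had 11 of 15 genes higher in HEP3B under DMSO and 1 lower, with a list median of 1.06. CEBPA differed by 7.16 (11.97 ± 0.19 against 4.81 ± 0.09), FOXA3 by 5.30, GATA6 by 4.51 and FOXA1 by 4.04, and ETS1 by -6.86 (3.17 ± 0.28 against 10.03 ± 0.17). The list median was 0.29 when every probe set was used. In HEP3B after DAAD-2 the largest differences were those of MAF, -0.68 (SE 0.35), FOXA3, -0.58 (SE 0.10), and ETS2, 0.54 (SE 0.18), none of them called.

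Of 13 substrates and inhibitors, 4 were higher in HEP3B under DMSO and 2 lower. Fetuin-A (AHSG), a meprin inhibitor, was at 13.90 ± 0.04 against 3.66 ± 0.50, a difference of 10.24. AGT, the precursor of the angiotensins that ENPEP and MME cut, differed by 7.20, KNG1, the kininogen that gives bradykinin, by 5.76, and the DPP4 substrate CXCL12 by 1.51. The meprin substrate IL18 differed by -3.70 (3.88 ± 0.09 against 7.57 ± 0.53) and RECK, a membrane-bound inhibitor of proteases, by -0.54. IL18 also had the largest difference of the list after DAAD-2 in HEP3B, 0.60 (SE 0.11), and in SNU-449, 0.52 (SE 0.24), neither of them called. The list median between the lines was 0.04.

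On the DAAD-2 arrays, where 22.2% of all genes were called higher in HEP3B and 17.5% lower, the counts of called genes were 3 higher and 0 lower for M13, 1 and 3 for M1, 2 and 1 for S9, 0 and 0 for astacins, 2 and 2 for other surface peptidases, 4 and 0 for brush border proteins, 13 and 1 for the transcription factors and 4 and 3 for substrates and inhibitors. Among the M13 genes ECE1 was called here as well, with a difference of 0.59, and FAP, the closest relative of DPP4, differed by -0.58 (adjusted p = 0.0399 by limma).

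**Figure D5:**
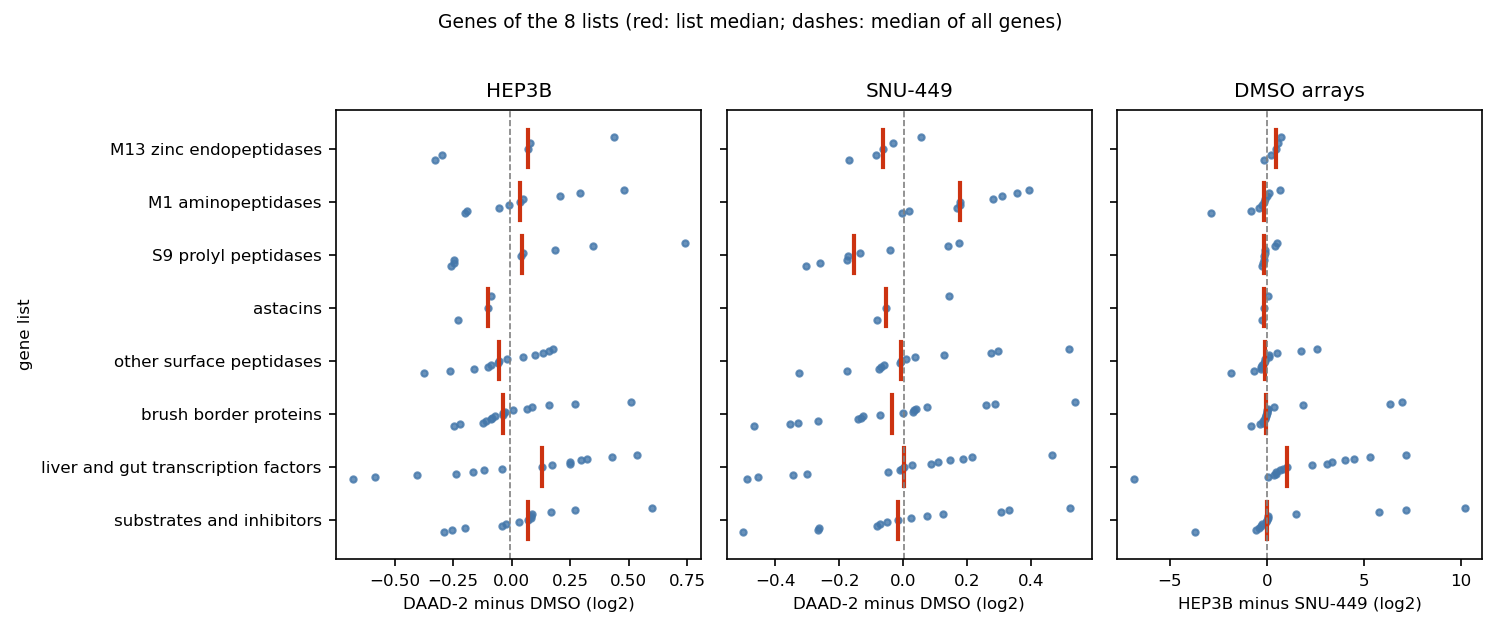
Log2 differences (x axes) of the genes of the 8 lists (y axis) after DAAD-2 in HEP3B and in SNU-449 and between the lines under DMSO. Points are genes, red lines are list medians and the dashed line is the median of all genes. The treatment differences stay within 0.74 of 0, while single genes differ between the lines by up to 10.24.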

How the data were processed

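The arrays were 12 Affymetrix HG-U133 Plus 2.0 arrays of total RNA in 4 groups of 3, taken from the labels. The deposited values are log2 values that the authors made with RMA, per the labels, and raw data were normalized in BRB Array Tools per the study's methods; which version of RMA was used is not stated there. They hold no detection calls, and the number of arrays limits the precision. 62 control probe sets were left out and 54613 were tested with limma 3.58.1 in R 4.3.3 (lmFit and eBayes, two-sided, Benjamini-Hochberg over all probe sets, called at adjusted p under 0.05), in one fit for each pair of groups. Scripts were tested on simulated data. Only the 41091 probe sets with a single symbol were named (1801 have several and 11721 have none). Genes of lists were represented by their brightest probe set. The exact permutation test of 3 against 3 cannot go below p = 0.1 and was not used. No array was identical to another. The named items were all member probe sets, the 5 nearest profiles, and ALB and VIM as checks. Up to 4 genes were named per list and comparison, those with the largest called difference (in HEP3B the largest difference). FN1, and some items for the DAAD-2 arrays and SNU-449, were singled out after their values were seen. The members and lists were chosen with earlier results of these data known. Alternatives were other scalings, a replicate block, one fit over all arrays, a filter on dim probe sets, a mean-variance trend in eBayes and fits without eBayes. The others were a fold rule, every probe set of a gene and leaving out each array. Deviations of same-numbered arrays correlated at -0.27 to 0.09 between treatments of a line and at 0.02 to 0.35 between the lines. As not every pair exceeded 0.1 in any comparison, the arrays were not paired. Some items were left out and are not reported here.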

Additional observations from a re-analysis of the deposited data

How the results depend on the processing

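Of 846 values recomputed under the alternatives, 827 kept their side of the threshold or moved by less than the spread of replicates. The replicate block, one fit over all arrays, the fold rule, the dim filter and the choices for eBayes cannot change a difference between groups. In HEP3B, and for the gap between the responses of the lines, only differences were judged, so values under those settings were bound to be kept. No called value reversed, and changes of sign in values that were not called were not counted. Quantile normalization moved the HEP3B difference of MEP1A to -1.27 and of ANPEP 202888_s_at to -1.10. With each array left out in turn these differences ranged from -1.21 to -1.06 and from -1.01 to -0.90, the gaps between the responses of the lines from -1.20 to -0.84 and from -0.80 to -0.52, and the SNU-449 differences, none called, from -0.27 to 0.08 for MEP1A, from -0.45 to -0.16 for ANPEP 202888_s_at and from -0.05 to 0.55 for DPP4 203717_at. The number of members called in SNU-449 was 0 in each of these fits, and 5 were called higher in HEP3B than in SNU-449 in all of them. Under the fold rule (unadjusted p under 0.05 and fold over 1.5) the count of members lower in HEP3B under DMSO went from 1 to 0, since the fold of MME is smaller. On the DAAD-2 arrays the count called lower was 1 with all 12 arrays in one fit (ANPEP 234576_at) and 0 to 2 with single arrays left out. The value 2 came without SNU-449 DAAD-2 array 2 and was ANPEP 234458_at and 234576_at. That array had a GAPDH 3′ minus 5′ difference of 1.99 against 0.69 and 0.72 for the others of its group, and the part of this in the count was not tested. With every probe set of a gene, the median of M13 between the lines was 0.20 under DMSO and 0.0683 under DAAD-2 (main 0.46 and 0.59), and that of the transcription factors 0.29 and 0.33 (main 1.06 and 1.19). With the replicate number as a block, the members' differences cannot change, because every group holds each replicate number. The counts of members called were then 0 in SNU-449, 5 higher and 1 lower under DMSO, and 5 higher and 0 lower under DAAD-2. Dim probe sets, 5 of 12 under the array median on every array, limit what could be seen for MEP1B, ENPEP and, in SNU-449, MEP1A, ANPEP and DPP4.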
